A study of Rattus norvegicus with 40 samples.

Results

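The let-7 family is a group of microRNAs (miRNAs) whose guide strands are cut from the 5′ arm of their hairpins and share 1 seed, the bases that pick the target. Members were taken by name from the deposited count table: every row called rno-let-7 with 1 letter and ending in -5p, and rno-miR-98-5p. The rule found 9 of 752 rows. A read was counted in at least 1 library for 7 of these 9, and for 581 of all 752 rows. The 7 are rno-let-7a-5p, rno-let-7b-5p, rno-let-7c-5p, rno-let-7f-5p, rno-let-7g-5p, rno-let-7i-5p and rno-miR-98-5p, and the other 2 are rno-let-7d-5p and rno-let-7e-5p, written from here on without the species prefix.

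A miRNA guide strand is held by an Argonaute protein and lowers the output of messenger RNAs that pair with its seed. The let-7 family was found as a developmental timing gene in nematodes, builds up as mammalian cells differentiate, and acts on transcripts that include those of RAS, MYC and HMGA proteins, while LIN28 proteins block the maturation of its precursors. In blood, let-7 strands are abundant in blood cells, and plasma carries them in vesicles and protein complexes.

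Small RNA was sequenced from tail-vein plasma of 20 adult male Sprague-Dawley rats, each sampled on day 2 (D2) and day 9 (D9) after surgery, which gave 40 libraries. In 16 rats a craniotomy was followed by lateral fluid-percussion injury, a pressure pulse on the exposed dura that produces traumatic brain injury (TBI). Video-EEG over 1 month in the sixth month placed 7 of these rats in the group with epilepsy (TBI+) and 9 in the group without (TBI-). The 4 sham rats had the same anesthesia and surgery, craniotomy included, and no pulse. The labels name no genotype beyond the strain, and all sampled rats were male and had undergone a craniotomy, so an effect of surgery common to all groups has no control here.

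Counts of a library summed to between 404542 and 2562083 reads on D2. On D9 the 16 TBI libraries held 332161 to 2864893 reads, and the 4 sham libraries held 140636, 162125, 202059 and 358202. Levels are given as CPM, the count scaled to a library total of 1e+06 reads. Each library label also carries a number, and the libraries were split by it into 3 stretches, called low (16 libraries), middle (12) and high (12). Numbers come in short consecutive blocks, 4 to a stretch, and the stretches differ in how far apart the blocks start (8 in the low, 6 in the middle and 7 in the high one). Steps between neighbouring numbers inside a stretch reach 5 and those between stretches are 4, so no gap sets the stretches apart. The labels do not say what the number stands for. On D2 the low stretch held all 4 sham rats and TBI+ rats 1 to 4, the middle one TBI+ rats 5 to 7 and TBI- rats 1 to 5, and the high one TBI- rats 6 to 9. On D9 the high stretch held the 4 sham rats and TBI+ rats 1 to 4, the low one TBI+ rats 5 to 7 and TBI- rats 1 to 4 and 9, and the middle one TBI- rats 5 to 8. The sham rats thus lie in 1 stretch on each day, a different one on D9 than on D2, and share it with 4 of the 16 injured rats.

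The mature strands are shown because members differ by few bases and a read has to be told apart on those bases. All 9 members matched a mature strand in the RefSeq table (build GRCr8), and 685 of the 752 rows did. Each strand is 22 bases long and is written 5′ to 3′, with the seed, bases 2 to 8, in capitals.
rno-let-7a-5p: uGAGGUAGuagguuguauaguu
rno-let-7b-5p: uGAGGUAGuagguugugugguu
rno-let-7c-5p: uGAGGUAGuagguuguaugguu
rno-let-7d-5p: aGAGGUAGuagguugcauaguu
rno-let-7e-5p: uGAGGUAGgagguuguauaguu
rno-let-7f-5p: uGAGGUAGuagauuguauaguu
rno-let-7g-5p: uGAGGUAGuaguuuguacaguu
rno-let-7i-5p: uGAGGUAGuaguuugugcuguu
rno-miR-98-5p: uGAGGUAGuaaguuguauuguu

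All 9 members hold the same seed, and they are the only ones to hold it among 693 mature names in RefSeq. Differences are given against let-7a-5p, with its base first, then the position counted from 1 at the 5′ end, then the member's base. A single base separates let-7a-5p from let-7c-5p (A19G), from let-7e-5p (U9G) and from let-7f-5p (G12A). A pair of differences separates it from let-7b-5p (A17G and A19G), let-7d-5p (U1A and U16C), let-7g-5p (G12U and U18C) and miR-98-5p (G11A and A19U). The most distant member is let-7i-5p, with 4 differences (G12U, A17G, U18C and A19U). Counts of members 1 base apart are uncertain to the extent that a sequencing error or a trimmed end moves a read from one row to another, and how reads with several matching places were counted is not given. G and C bases number 7 of 22 in let-7f-5p and miR-98-5p, 8 in let-7a-5p and let-7g-5p, 9 in let-7c-5p, let-7d-5p, let-7e-5p and let-7i-5p, and 10 in let-7b-5p.

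Reads of the 7 detected members took 7.91% ± 0.615 (SD, n = 4) of the library in sham rats and 6.91% ± 2.16 (SD, n = 16) in TBI rats on D2. On D9 their share was 6.77% ± 1.305 (SD, n = 4) in sham rats and 9.69% ± 2.58 (SD, n = 16) in TBI rats. The highest member over the 40 libraries was let-7c-5p, at a mean of 25628 CPM and rank 12 among the 752 rows. Next came let-7a-5p at 20777 CPM (rank 15), the strand most often used as the family's reference. Below them stood let-7f-5p at 12603 CPM (rank 20), let-7b-5p at 9643 CPM (rank 23), let-7i-5p at 6807 CPM (rank 28) and let-7g-5p at 5322 CPM (rank 32). The lowest was miR-98-5p, which carries another name and the same seed, at 309.9 CPM.

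Neighbours in this order kept their place to different degrees. The count of let-7a-5p exceeded that of let-7f-5p, and that of let-7g-5p exceeded miR-98-5p, in 40 of 40 libraries. The count of let-7c-5p exceeded let-7a-5p in 36 of 40, and let-7b-5p exceeded let-7i-5p in 35 of 40. The order of let-7f-5p over let-7b-5p held in 27 of 40 libraries and that of let-7i-5p over let-7g-5p in 25 of 40, so neither of these pairs has a fixed order in plasma.

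No read was counted for let-7d-5p or let-7e-5p in any of the 40 libraries. For a strand whose reads can be counted, a 0 would allow a level of up to 1.05 CPM in the deepest library and 21.3 CPM in the shallowest (3 reads of the total). This floor takes in counting error alone, as PCR copies of a molecule cannot be recognised here, and it sets no limit on the level of these members, given the layout of their genes below. The other arm of both hairpins was counted: let-7d-3p had 106593 reads and let-7e-3p had 449. For the 7 detected members the 5p strand held nearly all reads of its hairpin, from 95.1% for miR-98-5p (13756 reads against 705 for its 3p strand) to 99.97% for let-7g-5p (257792 against 69).

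In the RefSeq annotation the only copy of let-7d-5p overlaps rno-miR-3596b, and the only copy of let-7e-5p overlaps rno-miR-3596c, both on the opposite strand. Members with 2 copies, let-7a-5p and let-7f-5p, have such an overlap at 1 of them (rno-miR-3596a and rno-miR-3596d), and let-7b-5p, let-7c-5p, let-7g-5p, let-7i-5p and miR-98-5p have none. Of the 685 rows with a RefSeq strand, 88 overlap a miRNA on the opposite strand at every copy, and 85 of them (96.6%) had 0 reads, as let-7d-5p and let-7e-5p did. Of 592 rows with no such overlap 69 (11.7%) had 0 reads, and of 5 rows with an overlap at some copies, let-7a-5p and let-7f-5p among them, 0 rows had 0 reads. Reads of let-7d-5p and let-7e-5p are therefore missing from the table together with most rows of that layout, and whether the strands were in the plasma was not tested.

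**Figure D1:**
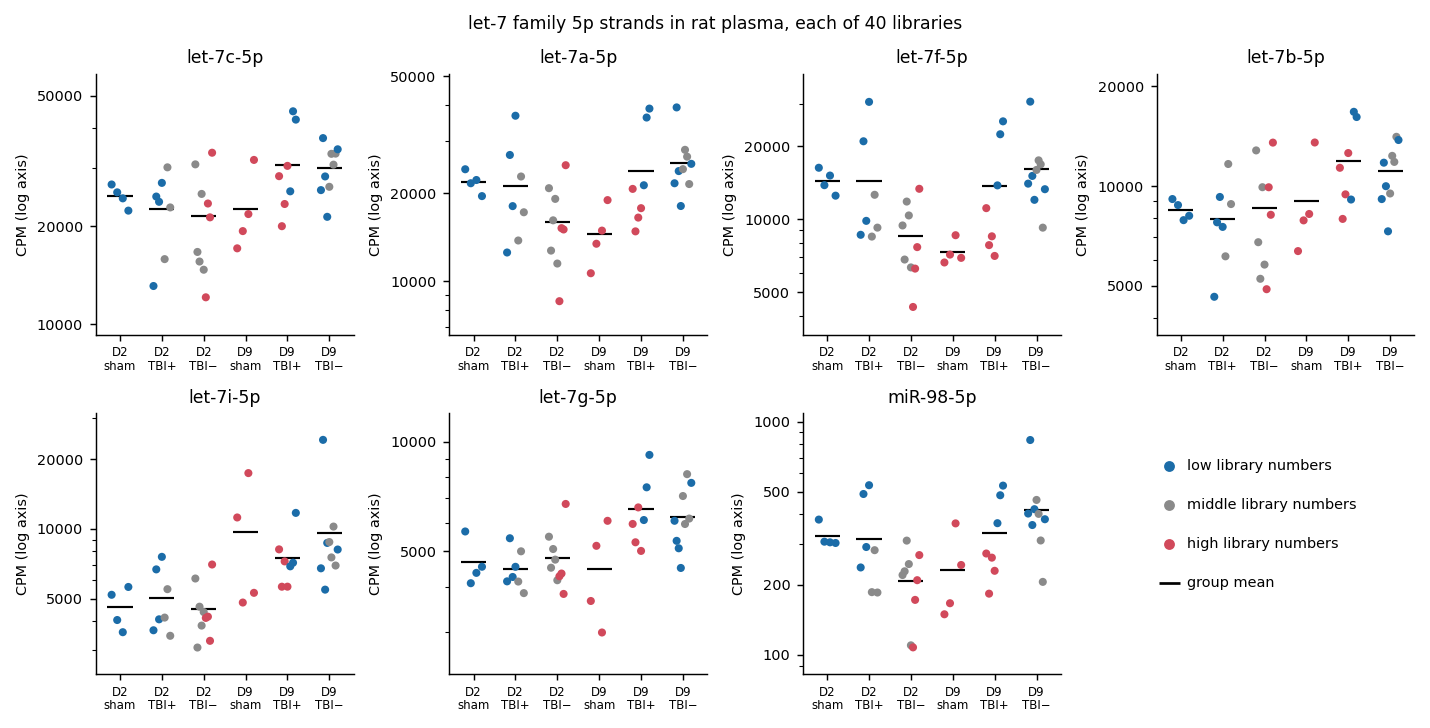
Level of each detected let-7 family 5p strand in the 40 libraries, in CPM on a log axis, by day and group; points are libraries, coloured by the stretch of library numbers, and bars are group means. On D9 the 4 sham libraries of let-7f-5p lie between 6627 and 8587 CPM, below all 9 TBI- libraries.

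The first question was whether injury changed the circulating family 2 days later. Tests were run with edgeR over all miRNAs with a read on that day, and a call means an adjusted p below 0.05 (Benjamini-Hochberg over all rows tested). On D2, 0 of 7 members were called between all TBI rats and sham rats, against 6.19% of 565 miRNAs, and 0 members had an unadjusted p below 0.05. Fold changes of the members on the log2 scale lay between -0.28 and 0.17, with a median of -0.044 against 0.090 for all miRNAs tested. DESeq2 also called 0 members, against 8.14% of 565 miRNAs.

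With the injured rats split by outcome on D2, 0 of 7 members were called between TBI+ and sham rats (background 3.19% of 565). Of the members 0 had an unadjusted p below 0.05, against 93 of 565 miRNAs. The members' log2 fold changes lay between -0.055 and 0.21, and DESeq2 called 0 (background 6.02%). Between TBI- and sham rats 0 of 7 were called by edgeR (background 6.19%) and 0 by DESeq2 (background 7.26%). There 1 member had an unadjusted p below 0.05, let-7f-5p, against 90 of 565 miRNAs. The 4 sham rats held 16302, 13815, 15137 and 12504 CPM of let-7f-5p on D2, and the 9 TBI- rats held 4342 at the lowest, 7668 at the median and 13347 at the highest. Most TBI- rats were below all 4 sham rats, and the ranges overlapped at 1 TBI- rat, number 9. The log2 difference of let-7f-5p was -0.61 ± 0.29 (SE), with an unadjusted p of 0.0423 and an adjusted p of 0.275 (0.142 to 1.00 over the alternatives). With the stretch of library numbers as a term in the fit it was 0.15. No TBI- library of D2 lies in the stretch that holds the sham libraries. The fitted value thus joins these groups through the TBI+ libraries and compares no TBI- with sham libraries inside a stretch.

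A further question was whether rats that later had epilepsy differed from those that did not. On D2, 0 of 7 members were called between TBI+ and TBI- rats, and the background was 0.0% of 565. DESeq2 called 0 members and 0 of all 565 miRNAs. An unadjusted p below 0.05 was found for 2 members, against 38 of 565 miRNAs. TBI+ rats held 8476 CPM of let-7f-5p at the lowest, 9842 at the median and 30488 at the highest. The values of TBI+ rats 2 and 4 (20968 and 30488 CPM) exceeded every TBI- rat, and the other 5 TBI+ rats fell within the TBI- range. The log2 difference of let-7f-5p between TBI+ and TBI- rats was 0.67 ± 0.25 (SE), with an adjusted p of 0.488 (0.0581 to 1.00 over the alternatives). It was 0.17 with the stretch of library numbers in the fit.

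On D2 the TBI+ rats held 185 to 534 CPM of miR-98-5p (median 281), and the TBI- rats 108 to 309 (median 220.0). The groups overlapped, and the highest values, those of TBI+ rats 2 and 4, were above every TBI- rat. The log2 difference of miR-98-5p was 0.51 ± 0.23 (SE), with an adjusted p of 0.694 (0.482 to 1.00 over the alternatives), and it turned to -0.045 with the stretch of library numbers in the fit. On D9, 0 of 7 members were called between TBI+ and TBI- rats by edgeR or DESeq2 (background 0.0% of 541 in both). Of the members 0 had an unadjusted p below 0.05, against 22 of 541 miRNAs. The members' log2 differences between the outcomes on D9 lay between -0.28 and 0.16, with a median of -0.016. With the stretch of library numbers in the fit they lay between -0.16 and 0.55, with a median of 0.46, and 0 were called. At neither day was a let-7 5p strand called between the outcomes.

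On D9 the contrast of TBI with sham rats gave calls. The 4 sham rats held 6627, 7143, 8587 and 6923 CPM of let-7f-5p. TBI+ rats held 7051 at the lowest, 11106 at the median and 25341 at the highest, and TBI- rats 9227, 15084 and 30558. The lowest TBI- rat was above the highest sham rat, while TBI+ rats 2, 3 and 4 (7815, 8497 and 7051 CPM) lay within the sham range. Between TBI- and sham rats on D9, 1 of 7 members, let-7f-5p, had values that did not overlap, against 0.924% of all 541 miRNAs with a read that day (5 miRNAs).

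Between all 16 TBI rats and the 4 sham rats on D9, 1 of 7 members was called, against a background of 3.51% of 541 miRNAs. The called member, let-7f-5p, rose by 1.16 ± 0.34 (SE) on the log2 scale in TBI rats, with an adjusted p of 0.0471. DESeq2 gave 1.00 with an adjusted p of 0.0481 and also called 1 member, against 5.18% of 541 miRNAs. Of these 541, 218 had no adjusted p in DESeq2, and its shares throughout count such rows as not called. Over all alternatives the adjusted p of let-7f-5p ran from 0.0369 to 0.813, and leaving out any single sham rat gave 0 members called. Without sham rat 1, 3 or 4 the share of all miRNAs called was 3.14%, 3.70% or 4.25%, and without sham rat 2 0 of 541 were called. With the stretch of library numbers in the fit, let-7f-5p differed by 0.33, with an adjusted p of 0.813. Plasma is a bulk sample, so here, and for falls alike, a change in the number of cells that release a strand and a change in the RNA released per cell (more or fewer cells, more or less RNA) cannot be told apart.

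The next member by size of difference on D9 was let-7a-5p. The sham rats held 10644, 13422, 14882 and 18914 CPM of let-7a-5p, and the TBI rats 14794 at the lowest, 22677 at the median and 39198 at the highest. Sham rats 1 and 2 were below all 16 TBI rats, and sham rats 3 and 4 were inside the TBI range. The log2 difference of let-7a-5p was 0.89 ± 0.28 (SE), with an adjusted p of 0.0662 (0.0558 to 0.790 over the alternatives), so it was not called.

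The sham rats held 149 to 366 CPM of miR-98-5p on D9 (149, 167, 366 and 243), and the TBI rats 183 at the lowest, 374 at the median and 834 at the highest. Sham rats 1 and 2 were below all TBI rats, and sham rats 3 and 4 were inside the TBI range. The log2 difference of miR-98-5p was 0.84 ± 0.34 (SE), with an adjusted p of 0.206 (0.140 to 0.942 over the alternatives). The 3 middle values came from let-7g-5p at 0.62, let-7c-5p at 0.55 and let-7b-5p at 0.47, with adjusted p of 0.206, 0.288 and 0.420. Single sham rats moved these values: let-7b-5p was at 0.30 without rat 2 and at 0.75 without rat 4, and miR-98-5p was at 0.55 without rat 2. At the other end, let-7i-5p differed by -0.034, with an adjusted p of 0.964. The members had a median of 0.62, against 0.30 for all 541 miRNAs tested. Both medians depended on the scaling. The members' median and that of all miRNAs were 0.48 and 0.12 with RLE size factors, 0.51 and 0.18 with library totals, and 0.37 and 0.091 with scaling to miR-28-3p (the study's reference miRNA). In DESeq2 they were 0.48 and -0.38.

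The sham rats spread widest in let-7i-5p on D9, at 11206, 4817, 17406 and 5304 CPM, and the TBI rats ran from 5475 through a median of 7393 to 24205. Sham rats 1 and 3 were above most TBI rats and sham rats 2 and 4 were below all of them. Without sham rat 3 the log2 difference of let-7i-5p was 0.36, and without sham rat 2 it was -0.45.

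By outcome, 0 of 7 members were called between TBI+ and sham rats on D9 (background 1.85% of 541), and DESeq2 called 0 (background 2.03%). An unadjusted p below 0.05 was found for 4 members, against 86 of 541 miRNAs. The log2 difference was 1.09 ± 0.37 (SE) for let-7f-5p and 0.88 ± 0.32 (SE) for let-7a-5p, with adjusted p of 0.119 (0.0801 to 0.838 over the alternatives) and 0.155 (0.101 to 0.843). Within TBI+ rats 1 to 4 and the sham rats, which share the high stretch, the differences were 0.25 and 0.30. Between TBI- and sham rats on D9, 1 of 7 members was called (background 4.81% of 541): let-7f-5p rose by 1.22 ± 0.36 (SE), with an adjusted p of 0.0429 (0.0393 to 1.00 over the alternatives). No TBI- library of D9 lies in the stretch that holds the sham libraries. With the stretch as a term in the fit, the difference of let-7f-5p was -0.075 and that of let-7a-5p was -0.092, against 0.90 for let-7a-5p without it. The 3 contrasts with sham rats on a day share the same 4 sham libraries.

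The second question was how levels moved from D2 to D9 in the same rats. Among the 4 sham rats, let-7f-5p was lower on D9 in all 4 and so was let-7a-5p, by -1.299, -0.95, -0.82 and -0.85 on the log2 scale for let-7f-5p. Among the 16 TBI rats, let-7f-5p was higher on D9 in 12. The 4 that were lower were TBI+ rats 2, 3 and 4 (-1.42, -0.21 and -2.11) and TBI- rat 9 (-0.0056). The first 3 share both stretches of library numbers with the sham rats, as does TBI+ rat 1 (0.37).

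For the other members, D9 was higher than D2 in 12 of 16 TBI rats for let-7a-5p, let-7c-5p and miR-98-5p and in 14 of 16 for let-7b-5p, let-7g-5p and let-7i-5p. In the 4 sham rats, D9 was higher in 0 for let-7a-5p, in 1 for let-7c-5p and miR-98-5p, in 2 for let-7b-5p and let-7g-5p, and in 3 for let-7i-5p. Each of these members was thus higher on D9 in at least 12 of 16 TBI rats, and in 0 to 3 of the 4 sham rats. The difference between the groups was not tested on these counts.

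In the fit over both days, 7 of 7 members rose from D2 to D9 in TBI rats, where 32.0% of 581 miRNAs were called (81 up and 105 down). DESeq2 called 6 members, all but let-7f-5p, against 30.8% of 581, of which 130 had no adjusted p. Leaving out TBI- rat 2, a choice made after seeing the data, gave 2 of 7, against 28.1% of 581 miRNAs. Thinning all libraries to the smallest total also gave 2 of 7, against 19.3% of 509. In TBI+ rats 1 to 4 alone, also chosen after seeing the data, 0 of 7 were called, against 7.95% of 541. There let-7a-5p, let-7f-5p and miR-98-5p were lower on D9 than on D2 (values under the processing below). The largest rise was that of let-7i-5p, 0.91 ± 0.18 (SE) on the log2 scale with an adjusted p of 6.83e-05 (2.04e-05 to 0.734 over the alternatives). The rises of the others were 0.63 for miR-98-5p, 0.51 for let-7c-5p and let-7f-5p, 0.50 for let-7b-5p and 0.48 for let-7a-5p and let-7g-5p. Their median with let-7i-5p included was 0.51, against 0.056 for all 581 miRNAs. Adjusted p of the other 5 ran from 0.00119 to 0.0135. That of let-7f-5p was 0.0405 (0.00846 to 0.954 over the alternatives), the highest of the 7.

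The same days differed in a ratio that has a red-cell miRNA on top. The log2 ratio of miR-451-5p, a red-cell miRNA, to miR-23a-3p, used to grade hemolysis, was -0.52 ± 0.66 (SD, n = 4) in sham and -0.28 ± 0.64 (SD, n = 16) in TBI rats on D2. On D9 it was 1.13 ± 0.23 (SD, n = 4) and 1.28 ± 0.63 (SD, n = 16). With this ratio as a term in the fit, 0 of 7 let-7 members were called over days in TBI rats, against 7.92% of 581 miRNAs, and let-7i-5p stood at 0.18 and let-7f-5p at -0.075. Before sequencing, plasma was screened for hemolysis by eye and by the absorbance of hemoglobin, and those readings are not in the files. The part of hemolysis in the rise of the members was not tested, since the ratio and the day moved together. Of the red-cell list, 5 of 6 entries are in the table (miR-486 is not among the row names). Over days in TBI rats 4 of these 5 rose, against 81 of 581 miRNAs. In sham rats 0 of these 5 were called over days, against 6.71% of 581. Mean miR-451-5p went from 2783 CPM on D2 to 3133 on D9 in sham rats, and from 3343 to 5874 in TBI rats. The red-cell list summed to 160152 CPM on D2 and 118737 on D9 in sham rats. The rise of the ratio in sham rats thus cannot be read as a rise of red-cell miRNAs.

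In sham rats, 1 of 7 members was called over days (background 6.71% of 581), and DESeq2 also called 1 (8.09% of 581, of which 220 had no adjusted p). The sham rats held 5202, 4050, 3589 and 5623 CPM of let-7i-5p on D2. Against the D9 values, let-7i-5p was clearly higher in rats 1 and 3 (by 1.11 and 2.28 on the log2 scale) and near its D2 level in rats 2 and 4 (0.25 and -0.084), and the D2 and D9 ranges overlapped. The fit gave a rise of 1.12 ± 0.36 (SE) for let-7i-5p, with an adjusted p of 0.0480 (0.0111 to 0.712 over the alternatives). This fit does not pair the days of a rat, and with the rat as a block let-7i-5p was at 0.89 with an adjusted p of 0.137 and was not called. The change of let-7f-5p in sham rats was -0.96 ± 0.39 (SE), with an adjusted p of 0.162 (0.028 to 1.00 over the alternatives), and that of let-7a-5p was -0.58 ± 0.31 (SE), with an adjusted p of 0.320 (0.0751 to 1.00 over the alternatives). The D2 and D9 sham values did not overlap for 2 of 7 members, let-7a-5p and let-7f-5p, against 7.23% of 581 miRNAs. The day in sham rats cannot be told apart from the stretch of library numbers, which went from low to high in all 4.

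The difference between the 2 changes, TBI minus sham, was called for 1 of 7 members (background 3.79% of 581). For let-7f-5p it was 1.46 ± 0.44 (SE) on the log2 scale, with an adjusted p of 0.0467 (0.00769 to 1.00 over the alternatives). DESeq2 gave 1.19 with an adjusted p of 0.0997 and called 0 members. The difference was 1.07 ± 0.35 (SE) for let-7a-5p, with an adjusted p of 0.0688 (0.0485 to 1.00 over the alternatives), and 1.08 ± 0.43 (SE) for miR-98-5p, with an adjusted p of 0.178 (0.105 to 1.00). In the 4 sham and 4 TBI+ rats whose libraries share a stretch of numbers on each day (low on D2 and high on D9), the same difference was -0.044 for let-7f-5p, -0.24 for miR-98-5p and 0.16 for let-7a-5p. That fit called 0 of 7 members and 1 of 541 miRNAs (0.185%), so the 0 says little about the members. Members had a median of 0.63 and all 581 miRNAs a median of 0.089 under the main scaling. The same medians were 0.60 and 0.090 with library totals, 0.36 and -0.16 with RLE size factors, 0.31 and -0.19 with miR-28-3p, and 0.36 and -0.61 in DESeq2. Without TBI- rat 2 they were 0.37 and -0.077.

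A contrast of the high with the low stretch of library numbers was added after seeing the data. Its fit held the day and injury (sham or TBI), and did not hold the outcome (TBI+ or TBI-). On D2 the TBI libraries of the low stretch were all TBI+ and those of the high stretch all TBI-. There the stretch cannot be told apart from the outcome. The contrast called 2 of 7 members, against 1.55% of 581 miRNAs. The higher-numbered libraries held less let-7f-5p, which fell by 1.05 ± 0.22 (SE) on the log2 scale with an adjusted p of 0.00133 (8.03e-05 to 0.0168 over the alternatives). They also held less miR-98-5p, which fell by 0.96 ± 0.22 (SE) with an adjusted p of 0.00446 (0.000136 to 0.132). The difference was -0.58 for let-7a-5p and -0.37 for let-7i-5p, with adjusted p of 0.144 and 0.628, and the other 3 members lay between -0.15 and 0.052. This fit does not pair the days of a rat. With the rat as a block 1 member was called, let-7f-5p, against 1.72% of 581 miRNAs. This contrast and those of D9 share the 4 sham libraries of that day, all in the high stretch, and the part of whatever the numbers stand for in the D9 differences was not tested beyond the fits given here.

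A ratio of 2 members within a library does not depend on its scaling. The ratios below were chosen after seeing the data, from the 2 members called between library numbers and the member with the highest value there, so their split by stretch restates that call and is no further test of it. The ratio of let-7f-5p reads to let-7b-5p reads had a median of 1.57 in the 16 libraries of the low stretch (0.966 to 4.05), 1.09 in the 12 of the middle one (0.656 to 2.25) and 0.922 in the 12 of the high one (0.512 to 1.04). By day, these medians were 1.82, 1.06 and 0.913 on D2 and 1.52, 1.42 and 0.943 on D9, so on D9 the middle stretch was near the low one. On D9, within the high stretch, its median was 0.974 in the 4 sham and 0.939 in the 4 TBI+ libraries. Within the low stretch on D2 it ran from 1.54 to 1.92 in the sham and from 1.06 to 4.05 in the TBI+ libraries. Within each of these stretches the sham and TBI+ ranges overlapped. The ratio of miR-98-5p to let-7b-5p had medians of 0.0394, 0.0254 and 0.0225 in the 3 stretches, in the same order (0.0401, 0.0244 and 0.0209 on D2, and 0.0382, 0.0294 and 0.0232 on D9).

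**Figure D2:**
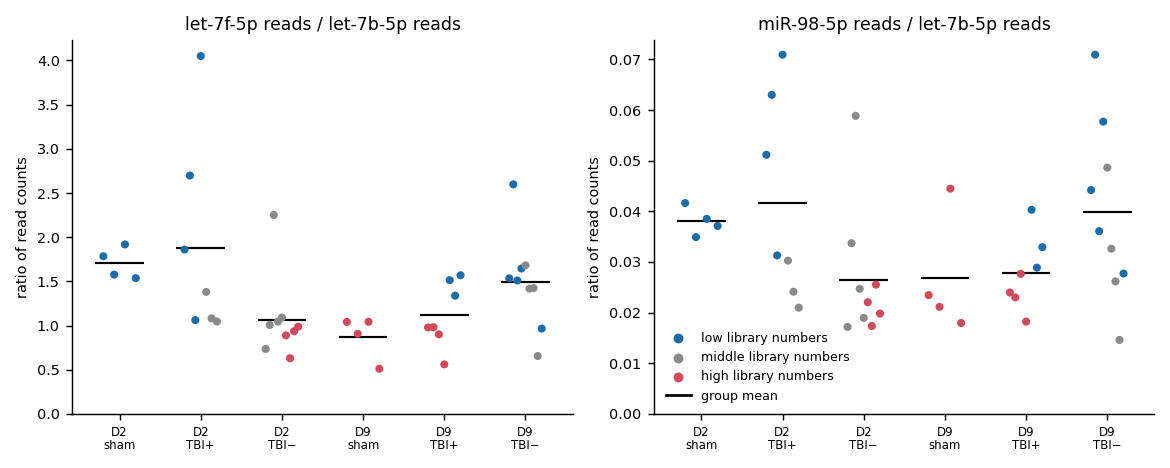
Ratio of let-7f-5p (left) and miR-98-5p (right) reads to let-7b-5p reads within each of 40 libraries, by day and group; points are libraries coloured by the stretch of library numbers, bars are group means. For let-7f-5p, the 12 libraries of the high stretch lie between 0.512 and 1.04, and the 16 of the low stretch between 0.966 and 4.05.

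The members were also set against their content of G and C bases, a feature the naming rule did not use. Across the 7 members, Spearman's correlation of G and C content with the log2 fold change was -0.84 for TBI against sham on D9 and 0.83 for the contrast of library numbers. On D2 its sign was the opposite for the same groups, at 0.72 for TBI and 0.70 for TBI- against sham rats, while it was -0.48 for TBI+ against sham rats. The 7 points share the same libraries, and their sequences overlap in most bases, so the coefficients are a description. Across the 248 of 274 well-counted miRNAs (a mean of at least 10 reads) that have a sequence, let-7 members included, the same correlations were -0.21 and 0.15. Members and all miRNAs differed in sign in 2 of the other contrasts: the coefficients were 0.018 and -0.24 for the day change in TBI rats, and 0.46 and -0.099 for TBI+ against TBI- on D9. On D9 the median log2 difference between TBI and sham rats was 0.34 for 44 miRNAs with under 40% G and C, where let-7f-5p, miR-98-5p, let-7a-5p and let-7g-5p fall, and 0.0055 for 107 miRNAs with 50% or more.

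**Figure D3:**
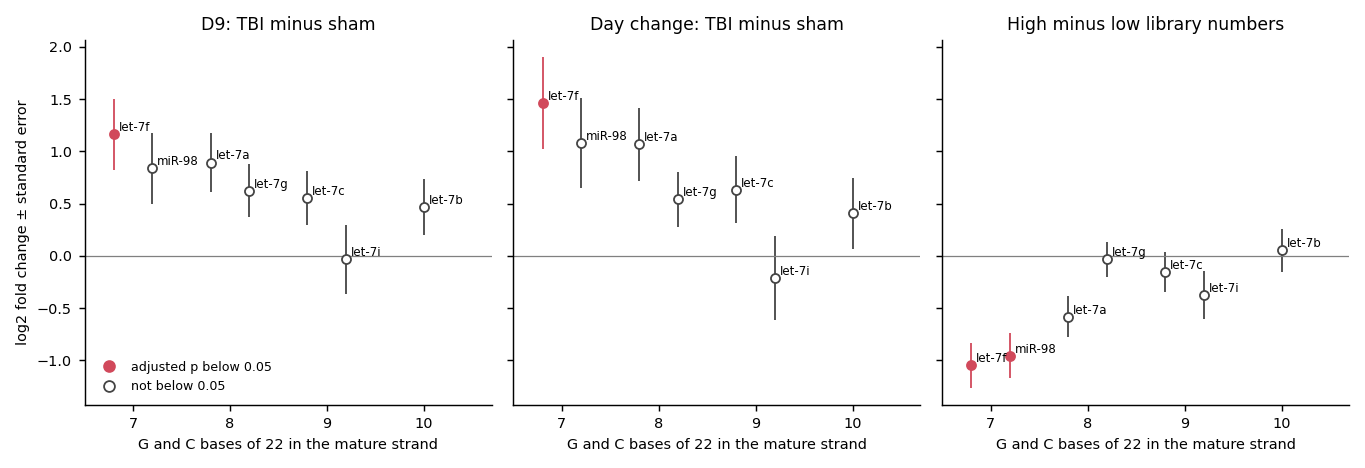
Log2 fold change ± standard error of the 7 detected let-7 family 5p strands against the number of G and C bases in the strand, for TBI minus sham on D9 (left), the day change in TBI minus that in sham rats (middle) and the contrast of library numbers (right); filled points have an adjusted p below 0.05, and points with the same number are spread sideways. For let-7f-5p, with 7 such bases, the values are 1.16, 1.46 and -1.05.

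Members also differed in how closely they ran together over the 40 libraries, measured as the standard deviation of the log2 ratio of a pair. The closest pair was let-7b-5p with let-7c-5p, at 0.134. Next were let-7a-5p with let-7c-5p at 0.249, let-7a-5p with let-7f-5p at 0.263 and let-7f-5p with miR-98-5p at 0.282. The first 3 of these are the 3 pairs of detected members that differ by 1 base. Pairs with 2 differing bases had a median of 0.488 (7 pairs), with 3 bases 0.602 (5 pairs) and with 4 bases 0.580 (6 pairs). How far closely alike sequences share reads through counting was not tested. The ratio of let-7b-5p to let-7c-5p reads lay between 0.278 and 0.425 in all 40 libraries, so the rows were not copies of each other.

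Outside the family, the nearest among 130 miRNAs (each library with 10 reads or more) was miR-92a-3p for let-7a-5p (0.418), let-7c-5p (0.386) and let-7g-5p (0.340). It was miR-106b-3p for let-7b-5p (0.419), miR-18a-5p for let-7i-5p (0.374), and let-7d-3p for let-7f-5p (0.524) and miR-98-5p (0.504). The second nearest were miR-361-3p for let-7a-5p, let-7f-5p and miR-98-5p (0.434, 0.539 and 0.508), miR-484 for let-7b-5p and let-7g-5p (0.425 and 0.349), miR-181c-3p for let-7c-5p (0.417) and miR-106b-3p for let-7i-5p (0.389). For let-7i-5p 0 of the other members were closer than its nearest outside miRNA, which sets it apart in this measure from the rest of the family. Its own nearest member, let-7c-5p, was at 0.578.

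The 3p strands come from the same hairpins and are mostly discarded when the guide is loaded. All 12 rows of let-7 and miR-98 3p strands had reads. Their summed level was 4697 ± 922 CPM (SD, n = 4) in sham and 2435 ± 694 (SD, n = 16) in TBI rats on D2, and 1609 ± 169 and 2862 ± 1151 on D9, with let-7d-3p the most abundant in every group. On D2, 1 of the 12, let-7d-3p, fell in TBI against sham rats and 0 rose, against 17 down and 18 up of 565 miRNAs. On D9, 3 of 12 rose in TBI against sham rats (let-7a-1-3p, let-7c-2-3p and miR-98-3p) and 0 fell, against 6 up and 13 down of 541. Between TBI- and sham rats on D9, 4 of 12 rose (the same 3 and let-7d-3p), against 7 of 541. Between TBI+ and sham rats on D9, 0 of 12 were called, against 10 of 541. Over days in sham rats 5 of 12 fell and 0 rose, against 22 down and 17 up of 581. Over days in TBI rats 1 of 12 rose (miR-98-3p) and 2 fell (let-7e-3p and let-7b-3p), against 81 up and 105 down of 581. In the difference of the 2 day changes 4 of 12 were called, all upward, against 11 up and 11 down of 581. Between the high and the low stretch of library numbers, 1 of 12 was called, against 9 of 581. It was let-7d-3p, downward, as let-7f-5p and miR-98-5p were.

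Among these rows, let-7a-1-3p and let-7c-2-3p have the same mature sequence in RefSeq (0 differing bases) and nearly the same counts, 3898 and 3899 reads, equal in 22 of 40 libraries. They are 1 measurement given on 2 rows, so the calls on D9 stand for 1 strand fewer than the count says. The same holds for the calls over days in sham rats and in the difference of the day changes. The strand they share is the passenger partner of let-7a-5p and let-7c-5p, and neither of those guides was called on D9.

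Some let-7 hairpins lie on transcripts with miRNAs of the miR-99, miR-100 and miR-125 families. Of 11 such rows, all with reads, 0 were called in any contrast between groups on D2 or D9, where let-7f-5p was called on D9. Over days in TBI rats 6 of the 11 fell and 0 rose, where 105 of all 581 miRNAs fell and 81 rose, 7 of 7 let-7 members among the latter. In sham rats 1 of 11 fell over days, against 22 of 581, and 0 were called between library numbers, against 1.55% of 581.

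Markers of blood cells and tissues were read beside the let-7 results, as summed levels. On D9 the red-cell list summed to 118737 ± 25051 CPM (SD, n = 4) in sham and 159972 ± 37759 (SD, n = 16) in TBI rats, with miR-92a-3p the most abundant, and 0 of 5 were called between these groups. Over all miRNAs, 3.51% of 541 were called between these groups on D9. Over days in TBI rats 81 of 581 rose and 105 fell, and on D2 18 of 565 rose and 17 fell in TBI against sham rats. The platelet list had reads for 3 of 4 (miR-126a-5p at 0), with miR-21-5p the most abundant. It summed to 15273 ± 1863 CPM in sham and 18413 ± 3611 in TBI rats on D9. Between groups on D9 0 platelet miRNAs were called, and 3 rose over days in TBI rats. Of these, miR-223-3p was also called upward in the difference of the day changes, as let-7f-5p was. The lymphocyte list (miR-150-5p the most abundant, and miR-342-3p) summed to 31024 ± 12382 CPM in sham and 15798 ± 6015 in TBI rats on D2, and both fell there, while 0 of 7 let-7 members were called. On D9 the list summed to 28679 ± 30868 CPM in sham and 23124 ± 8501 in TBI rats, with 0 called. Sham rat 2 stood apart on D9 at 74739 CPM, and the other sham rats held 8864 to 15748. Over days in TBI rats miR-150-5p rose, as the 7 let-7 members did. Neuronal markers rose on D2 (3 of 5, miR-124-3p, miR-124-5p and miR-129-5p, with miR-9a-3p at 0), from a sum of 14.0 ± 14.1 CPM in sham to 129.9 ± 45.9 in TBI rats, again with 0 let-7 members called, and the same 3 fell over days in TBI rats. The liver list (2 of 3 with reads, miR-122-5p at 0, miR-192-5p the most abundant) summed to 35039 ± 8137 CPM in sham and 45425 ± 29784 in TBI rats on D2, and to 69062 ± 26161 and 61292 ± 24528 on D9. Of it, miR-194-5p rose over days in sham and in TBI rats and fell in TBI- against sham rats on D9, where let-7f-5p rose. The muscle list had miR-1-3p and miR-133a-3p at 0 and 11 reads in all for miR-206-3p, which was called downward in TBI- against sham rats on D9, on 2 reads in sham rat 2 and 0 in the other 3 sham and all 9 TBI- libraries. The 5 marker rows at 0 overlap a miRNA on the opposite strand at every copy, as let-7d-5p and let-7e-5p do, so a 0 there cannot be read as absence from plasma. The part of any of these cell sources in the let-7 differences was not tested.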

How the data were processed

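The deposited table holds raw counts of reads per miRNA, made by the authors from plasma libraries (TruSeq Small RNA, 2 flow cells merged) with FastQC 11.8, Trimmomatic 0.36, Bowtie2 and featureCounts from Subread. Strand and multiple-match settings are not given. The members and lists were chosen with earlier results of these data known. Named miRNAs follow 1 rule: all rows of the family rule, their 3p strands, miRNAs of shared transcripts, the 2 outside miRNAs most like each member, fixed marker lists and miR-28-3p. Also named are miR-23a-3p, for the hemolysis ratio, and the miRNAs that overlap a member on the opposite strand. Of the list entries 1 was not in the table.

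Rows without reads were removed, and edgeR 4.0.16 (R 4.3.3; quasi-likelihood F test, TMM, all libraries of a day or of both days in 1 fit) gave two-sided p values, adjusted by Benjamini-Hochberg over all rows tested. Alternatives were DESeq2 1.42.0, RLE, library-total and miR-28-3p scaling, filterByExpr, thinning to the smallest total (seed 1), the hemolysis ratio (pseudocount 0.5) or the stretch of library numbers as a term, replicate or rat blocks, leaving out each sham rat, the sham rats and TBI+ rats 1 to 4 only (a shared stretch on each day), and the members summed to 1 row. Chosen after seeing the data were the contrast of library numbers, the ratios to let-7b-5p, leaving out TBI- rat 2, and TBI+ rats 1 to 4 alone. The code was tested on simulated data. By design the same 20 rats were sampled on both days. Correlations of a rat's D2 and D9 profiles over 274 miRNAs, after centring on the group, had medians of -0.0911 (sham), -0.0847 (TBI+) and 0.0188 (TBI-). Figures were drawn with matplotlib 3.10.9 and descriptions made with scipy 1.17.1, numpy 2.4.6 and pandas 2.3.3 under Python 3.11.15. No 2 libraries were identical.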

Additional observations from a re-analysis of the deposited data

Results flagged for a closer look

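A library was flagged when the gap to its nearest neighbour was large for its group's range, with 42 groups of 1 member tested and about 1 flag in 20 groups, or 2.1, expected by chance. Of the 6 flags, 4 fell on 1 library, TBI- rat 2 on D9, the shallowest TBI library of that day (332161 reads). It held 39198 CPM of let-7a-5p, where the other 8 TBI- rats held 18057 to 28084. Its let-7f-5p was at 30558 CPM (others 9227 to 17490), its let-7i-5p at 24205 CPM (others 5475 to 10237) and its miR-98-5p at 834 CPM (others 206 to 462). Without this rat on either day, let-7f-5p differed by 1.07 between TBI and sham rats on D9 (adjusted p 0.0369), and 2 of 7 members were called over days in TBI rats (28.1% of 581 miRNAs), where 7 of 7 were called with it (32.0%). Between TBI- and sham rats on D9 the count of 1 member became 0 without it (5.91% of 541 miRNAs). For the difference of the day changes it also went from 1 to 0 (4.82% of 581).

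The other flagged libraries were TBI+ rat 7 on D9 for let-7i-5p, at 11727 CPM (others 5637 to 8166), and sham rat 1 on D2 for miR-98-5p, at 380 CPM (others 302 to 306). TBI+ rat 7 also had the highest hemolysis ratio of the 40 libraries (2.39). What set these libraries apart was not tested.

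The change of let-7f-5p over days was flagged as different between TBI and sham rats, at 1.46 on the log2 scale. It was -0.044 within the rats whose libraries share a stretch of numbers on each day. Groups and library numbers are confounded in most of this contrast, and what the numbers stand for was not tested.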

How the results depend on the processing

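No member was called under any alternative in the 4 contrasts of D2, between TBI+ and sham rats on D9, or between TBI+ and TBI- rats on D9. The larger changes are given below, and in each case the cause was not tested.

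Scaling, test and filter changed several counts. On D9 between TBI and sham rats, 1 member was called in the main fit (3.51% of all miRNAs) and 1 with DESeq2 (5.18%). The count was 0 with RLE scaling (4.62%), library totals (4.25%), miR-28-3p scaling (5.36%), filterByExpr (6.91%) and after thinning to the smallest total (3.69%). The log2 difference of let-7f-5p, 1.16 in the main fit, stayed between 0.97 and 1.04 in these 5, with adjusted p of 0.0592 to 0.230. Between TBI- and sham rats on D9 the 1 call of let-7f-5p (4.81% of all miRNAs) was kept with DESeq2 (4.07%) and library totals (4.81%). The count became 0 with RLE scaling (4.44%), miR-28-3p scaling (3.88%), filterByExpr (6.55%) and after thinning (3.69%). In these 4 let-7f-5p lay between 0.99 and 1.10 (1.22 in the main fit). For the difference of the day changes, the main fit called 1 member (3.79% of all miRNAs). The count was 0 with DESeq2 (4.99%), RLE scaling (3.27%) and library totals (3.44%). It was also 0 with miR-28-3p scaling (3.79%), filterByExpr (6.63%) and after thinning (1.38%). In these fits let-7f-5p lay between 1.19 and 1.43 (1.46 in the main fit). Over days in sham rats the 1 call, of let-7i-5p (6.71% of all miRNAs), became 0 with library totals (5.68%). Over days in TBI rats 7 calls (32.0% of all miRNAs) became 2 after thinning (19.3%), which leaves fewer reads, 6 with DESeq2 (30.8%), and 6 with RLE scaling and library totals (30.5% each). The part of depth in these changes (140636 to 358202 reads in the 4 sham libraries of D9) was not tested.

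With the hemolysis ratio in the fit, the count became 0 between TBI and sham rats on D9 (3.14% of all miRNAs). There let-7f-5p stayed at 1.05 with an adjusted p of 0.0505. Between TBI- and sham rats on D9 (3.51%) the call of let-7f-5p was kept, at 1.15 with an adjusted p of 0.0393. The count became 0 over days in TBI rats (7.92%), and 2 for the difference of the day changes (4.13%). Over days in sham rats (5.16%) the call passed from let-7i-5p (0.34, adjusted p 0.712) to let-7f-5p, which fell by 1.57 (adjusted p 0.028). The change of let-7f-5p over days in TBI rats reversed to -0.075, with an adjusted p of 0.954.

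With the stretch of library numbers fitted, the count became 0 between TBI and sham rats on D9 (1.29% of all miRNAs, let-7f-5p at 0.33). It was 0 between TBI- and sham rats on D9 (0.555%) and 0 for the difference of the day changes (0.344%, let-7f-5p at 0.26). Over days in TBI rats it was 6 (28.1%). Between TBI+ and TBI- rats on D9 the members' median went from -0.016 to 0.46. On D2, let-7f-5p between TBI- and sham rats reversed to 0.15, and miR-98-5p between TBI+ and TBI- rats to -0.045. On D9 between TBI- and sham rats, let-7f-5p reversed to -0.075 and let-7a-5p to -0.092. Over days in sham rats let-7f-5p reversed to 0.091, and in the difference of the day changes miR-98-5p to -0.044.

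Some fits took only the sham rats and TBI+ rats 1 to 4, which share a stretch on each day. For the difference of the day changes, 0 members were called (0.185% of all miRNAs), and let-7f-5p reversed to -0.044 and miR-98-5p to -0.24. In TBI+ rats 1 to 4 alone, chosen after seeing the data and with fewer libraries, 0 members were called over days (7.95%). There let-7a-5p reversed to -0.32, let-7f-5p to -0.90 and miR-98-5p to -0.58.

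With the animal number as a block on a day, different rats are paired. On D9 the count became 0 between TBI and sham rats (1.29%) and between TBI- and sham rats (1.11%). Rats paired so had correlations of -0.464 to 0.185 on D2 and -0.445 to 0.314 on D9. With the rat as a block over days, the count was 0 in sham rats (4.82%), with let-7i-5p at 0.89. It was 7 in TBI rats (27.9%) and 1 for the difference of the day changes (2.93%). For library numbers, a contrast chosen after seeing the data, the block gave 1 call (1.72%) in place of 2. DESeq2 gave 3 (3.44%), adding let-7a-5p.

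Without sham rat 2, 0 of 541 miRNAs were called in any D9 contrast with sham rats. Leaving out each sham rat in turn, or TBI- rat 2 (chosen after seeing the data), the count on D9 ran from 0 to 1 between TBI and sham rats and was 0 throughout between TBI- and sham rats. Over days it ran from 0 to 1 in sham rats and from 2 to 7 in TBI rats, and was 0 throughout for the difference of the day changes. The D9 difference of let-7i-5p between TBI and sham rats ran from -0.45 to 0.36, so its sign rests on single sham rats.

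Summing all members to 1 row gave a log2 difference of 0.71 between TBI and sham rats on D9 and 0.54 over days in TBI rats. The limits that remain are 4 sham rats, library numbers that change with group and day, and rows that differ by 1 base.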

Other observations

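Counts of miR-99a-5p and miR-100-5p, which share transcripts with let-7 hairpins, were nearly the same, at 60437 and 61479 reads in all and within 5% of each other in 38 of 40 libraries. They are counted above as 2 rows. Between let-7a-5p and let-7c-5p, 1 base apart, 2 of 40 libraries came within 5%, and between let-7a-5p and let-7f-5p 0 did.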
